A study of Homo sapiens with 6 samples.

Results

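The genes described here are 30 members of the p53 pathway: the negative regulators that restrain p53 and the genes that p53 is known to induce in apoptosis, DNA repair, metabolism and growth control. Members were chosen by symbol. A member was measured if the array annotation paired a probeset with that symbol alone, which held for 29 members among the 18404 genes measured. Each of the 29 had 1 probeset. FDXR, a mitochondrial reductase, was not analysed here.

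The arrays compare 3 samples of HEK293 Flp-In cells that overexpress FLAG-HA-tagged TRIM71 with 3 samples of the wild-type parental Flp-In line. HEK293 is an established human embryonic kidney line, and TRIM71 is an RNA-binding protein and ubiquitin ligase of stem and progenitor cells. Both lines grew in DMEM with 2 mM glutamine and 10% FCS, and 50 ug/ml hygromycin B is named for the TRIM71 line alone, so transgene, drug and other differences between the lines cannot be told apart. The labels do not say whether the TRIM71 line is 1 clone, nor whether the 3 samples of a group were separate cultures, so p-values here reflect spread between samples that may be technical repeats.

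p53 is a transcription factor that is kept low by the ligase MDM2 and its partner MDM4 and is stabilised after DNA damage through the kinases ATM, ATR, CHEK1 and CHEK2. Its targets arrest the cycle, repair DNA, adjust metabolism or start apoptosis, and some of them, MDM2 first, switch p53 off again. HEK293 cells carry adenoviral early genes whose products bind p53, stabilise it and block its activity, so p53 output in this line is not that of a normal kidney cell.

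The arrays measured bulk RNA, in which a change in every cell and a change in some cells cannot be told apart. Values are log2 expression from RMA, and a log2 fold change is the TRIM71 line minus the parental line. Genes are called risen or fallen at a Benjamini-Hochberg adjusted p under 0.05 in a limma fit over all 32321 probesets. TRIM71 itself stood at 10.63, 10.86 and 10.72 in the TRIM71 arrays, against 7.23, 7.54 and 7.44 in the parental arrays (log2 fold change 3.33, limma adjusted p = 6.75e-05; two-sided exact permutation p = 0.1, the smallest that 3 against 3 arrays can give). Array medians lay between 6.90 and 6.97, and arrays correlated at 0.996 to 0.997 within groups and 0.991 to 0.994 between groups. Of the HEK293 markers, VIM, NEFL, INA, KRT8 and KRT18 were above the 88th percentile of all probesets and NEFM stood at the 42.8th. Of these 6, VIM rose by 0.40 (adjusted p = 0.00277), while NEFL, a neurofilament subunit, was 2.72-fold lower in the TRIM71 line (log2 fold change −1.45, adjusted p = 9.55e-05), INA fell by 0.62 on the log2 scale (adjusted p = 0.000795) and KRT8 by 0.22 (adjusted p = 0.0381, and 0.0641 to 0.124 with any 1 array left out). NEFM and KRT18 did not pass, and the part of these marker differences in the p53 results was not tested. Markers of fibroblasts reached at most the 58.0th percentile and those of leukocytes and endothelium at most the 36.5th. By limma, 0 of 7 measured genes in each of the fibroblast list and the leukocyte and endothelial list passed, and at an unadjusted p under 0.05 there were 1 and 0.

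Known p53 binding sites are built from repeats of a 10-base unit, the p53 decamer. The decamer consensus was searched on both strands in the 300 bases around each start site, 250 before and 50 after, in RefSeq sequence of GRCh38.p14, and windows were found for 24 of the 29 measured members. An exact match lay in at least 1 window of 5 of these 24 (20.8%), against 8.06% of all 27305 genes with a window and 6.63% of all 35116 windows. With 1 mismatch allowed, 13 of the 24 members had a decamer (54.2%), against 50.1% of all genes with a window, so the gap seen for exact matches was small at that setting. The 5 are shown as all the members with an exact match. Their responses differed: FAS, SESN1 and DDB2 fell in the TRIM71 line, while AEN and PLK2 did not pass the test and had higher means there. Capitals mark the exact decamers, positions count back from the start site, and each sequence reads 5′ to 3′ on the gene's strand.
FAS (chr10:88991271-88991430, plus strand, decamer at -122): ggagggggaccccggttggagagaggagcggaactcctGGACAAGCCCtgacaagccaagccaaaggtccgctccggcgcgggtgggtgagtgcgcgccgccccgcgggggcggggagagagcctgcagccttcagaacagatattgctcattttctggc
SESN1 (chr6:109008989-109009148, minus strand, decamer at -49): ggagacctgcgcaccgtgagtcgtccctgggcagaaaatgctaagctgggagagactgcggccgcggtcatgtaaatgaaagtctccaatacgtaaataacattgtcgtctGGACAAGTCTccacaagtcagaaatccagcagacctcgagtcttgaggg
DDB2 (chr11:47214975-47215004, plus strand, just after the start): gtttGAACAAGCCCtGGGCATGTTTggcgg
AEN (chr15:88621180-88621339, plus strand, decamer at -34): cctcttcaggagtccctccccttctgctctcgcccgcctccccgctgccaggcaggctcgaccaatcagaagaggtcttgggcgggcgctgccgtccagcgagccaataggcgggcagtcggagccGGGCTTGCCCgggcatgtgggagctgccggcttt
PLK2 (chr5:58460087-58460246, minus strand, decamer at -132): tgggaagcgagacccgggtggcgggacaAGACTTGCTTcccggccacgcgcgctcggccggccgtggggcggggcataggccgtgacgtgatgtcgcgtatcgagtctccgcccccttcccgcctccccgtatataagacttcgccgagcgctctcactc

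DDB2 was the member whose window held a pair of exact decamers, 1 base apart. A decamer with a second one of at most 1 mismatch within 13 bases occurred in 0.505% of all genes with a window and in DDB2 alone among the members. Sites outside these windows were not searched, and FAS and SESN1 have several starts in RefSeq, of which the 1 with a match is shown.

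The p53 genes did not move one way in the TRIM71 line. Of 29 measured members, 4 rose, 9 fell and 16 did not pass, against 10.0% of all genes that rose and 12.2% that fell. In either direction 13 of 29 passed, against 22.2% of all genes. The median log2 fold change of the members was −0.04, beside −0.01 over all genes. Calls were more frequent among brighter genes, and 26 of the 29 members reached the median of all probesets: 13 of these 26 passed, 4 higher and 9 lower, against 31.2% of the 11100 genes as bright (14.6% higher and 16.6% lower). Groups did not overlap for 22 of the 29 members, against 43.6% of all genes. Among genes that reached the median of all probesets the share was 58.9%, but the 22 include PLK2, which was dimmer than that. Changes were small: 1 member, SPATA18, changed by at least 1.5-fold, against 4.0% of all genes. Without TRIM71 replicate 1 the number that fell was 5, and the number that rose was also 5.

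**Figure D1:**
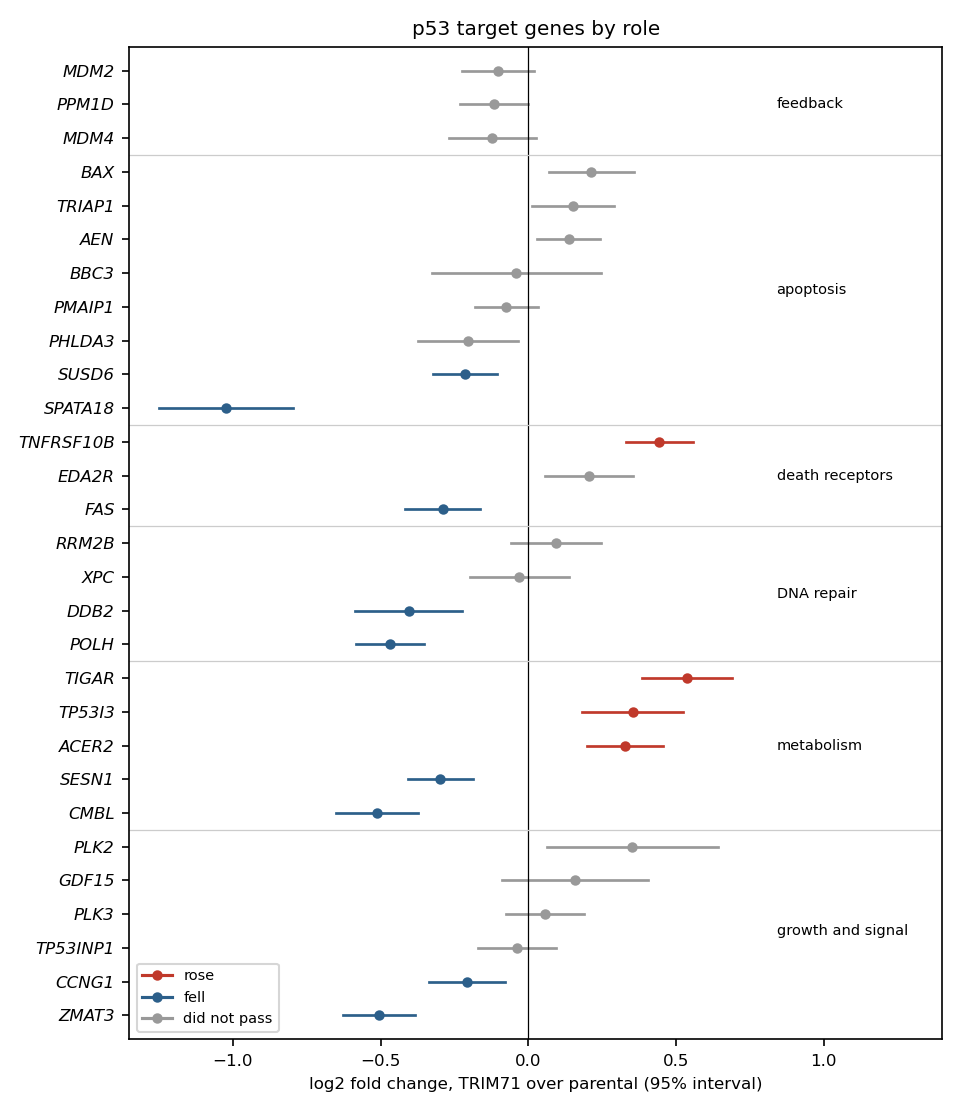
Log2 fold change of the 29 measured p53 members, TRIM71 over parental (horizontal axis), with 95% limma intervals as bars, grouped by role from top to bottom. Red members rose, blue fell and grey did not pass; the 3 feedback inhibitors are all grey and slightly below 0, the metabolic group is split between 3 red and 2 blue, and SPATA18 lies farthest from 0 at −1.02.

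The feedback inhibitors of p53 gave small differences, each lower in the TRIM71 line. By limma, 0 of 3 passed, against 22.2% of all genes, and 1 had an unadjusted p under 0.05. The share of all genes at that unadjusted level was not counted, here or for the roles below. MDM2, the ligase that marks p53 for degradation and is itself a p53 target, had 11.43, 11.39 and 11.31 in the TRIM71 arrays, against 11.48, 11.47 and 11.49 in the parental arrays. All TRIM71 arrays were lower, but the difference was −0.10 (95% interval −0.23 to 0.02, adjusted p = 0.24). MDM4, the relative that masks the activation domain of p53, had 9.60, 9.46 and 9.43 in the TRIM71 arrays, against 9.61, 9.66 and 9.59 in the parental arrays, and the groups overlapped (−0.12, interval −0.27 to 0.03, adjusted p = 0.25). PPM1D, a phosphatase that reverses damage signalling on p53 and its kinases, had 10.23, 10.21 and 10.21 in the TRIM71 arrays, against 10.37, 10.35 and 10.27 in the parental arrays (log2 fold change −0.12, adjusted p = 0.164). The 3 intervals leave room for a decrease of at most 0.27 and an increase of at most 0.03 on the log2 scale.

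Of 8 apoptosis members, 2 fell, 0 rose and 6 did not pass by limma, while 6 had an unadjusted p under 0.05. Among all genes 22.2% passed in either direction, and among those that reached the median of all probesets 31.2%. The share of 2 in 8 lay between these. Counting only genes that fell, the shares were 12.2% and 16.6%. SPATA18, a protein of mitochondrial quality control, changed most of all members. It had 6.78, 6.95 and 6.88 in the TRIM71 arrays, against 7.87, 8.07 and 7.74 in the parental arrays. It was 2.03-fold lower in the TRIM71 line (log2 fold change −1.02, SE 0.09, adjusted p = 0.00144), with means of 6.87 ± 0.09 and 7.89 ± 0.16 (SD, n = 3 each), and passed under each of 18 refits with another setting or an array left out. The mean in the TRIM71 line lay just below the median of all probesets, 6.94, where log2 values understate a change.

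SUSD6, a transmembrane protein known as a p53-responsive growth suppressor, had 7.95, 7.98 and 7.91 in the TRIM71 arrays, against 8.17, 8.15 and 8.17 in the parental arrays (log2 fold change −0.21, adjusted p = 0.0227). The groups were apart, but the call ended whichever array was left out (adjusted p from 0.0538 without TRIM71 replicate 2 to 0.0757 without TRIM71 replicate 1, and 0.0713 without TRIM71 replicate 3; 0.0602, 0.0701 and 0.0718 without parental replicates 1, 2 and 3). It also ended with the arrays centred on their medians (−0.22, adjusted p = 0.0546).

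The best-known killers in the list gave no call. BBC3, also called PUMA, which frees pore formers by binding BCL2 relatives, had 7.35, 7.32 and 7.64 in the TRIM71 arrays, against 7.28, 7.57 and 7.59 in the parental arrays. Its groups overlapped and its interval was wide (log2 fold change −0.04, interval −0.33 to 0.25, adjusted p = 0.874). PMAIP1, also called NOXA and of the same class, had 11.82, 11.81 and 11.81 in the TRIM71 arrays, against 11.93, 11.86 and 11.88 in the parental arrays, a narrow difference of −0.07 (interval −0.18 to 0.03, adjusted p = 0.335). BAX, the pore former of the mitochondrial outer membrane, had 9.90, 9.97 and 10.02 in the TRIM71 arrays, against 9.68, 9.75 and 9.83 in the parental arrays. Every TRIM71 array was above every parental array, yet BAX missed the threshold (log2 fold change 0.21, interval 0.07 to 0.36, adjusted p = 0.0594), and it passed in 6 of 18 refits, with adjusted p from 0.0208 to 0.0411 in those.

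The remaining apoptosis genes leaned both ways without passing. AEN, an exonuclease that enhances apoptosis, differed by 0.14 (adjusted p = 0.0879). TRIAP1, a small protein that protects mitochondria from apoptosis, differed by 0.15 (adjusted p = 0.135). PHLDA3, which blocks AKT at the membrane, differed by −0.20 (adjusted p = 0.108). For each of these 3 the TRIM71 and parental arrays did not overlap.

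The death receptors moved in opposite directions. TNFRSF10B, a receptor for the ligand TRAIL, had 10.15, 10.22 and 10.16 in the TRIM71 arrays, against 9.70, 9.76 and 9.74 in the parental arrays. It rose 1.36-fold (log2 fold change 0.44, SE 0.05, interval 0.33 to 0.56, adjusted p = 0.00235), and the lowest TRIM71 array was well above the highest parental one. FAS, the receptor for FAS ligand and carrier of the first decamer shown above, had 8.22, 8.30 and 8.19 in the TRIM71 arrays, against 8.57, 8.51 and 8.50 in the parental arrays. It was 1.22-fold lower (log2 fold change −0.29, SE 0.05, adjusted p = 0.0141), and lost its call without TRIM71 replicate 1 (adjusted p = 0.0568) or parental replicate 2 (0.0501). EDA2R, a receptor for an ectodysplasin isoform, had 7.89, 8.08 and 7.95 in the TRIM71 arrays, against 7.81, 7.75 and 7.75 in the parental arrays, and missed the threshold (log2 fold change 0.20, adjusted p = 0.0732).

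The death receptor genes next to TNFRSF10B on chromosome 8 were read from the list of further p53 targets. TNFRSF10D, a decoy receptor for TRAIL that lacks a working death domain, had 9.54, 9.65 and 9.67 in the TRIM71 arrays, against 8.97, 9.18 and 9.17 in the parental arrays, and rose (log2 fold change 0.51, adjusted p = 0.00639). TNFRSF10A, the other signalling TRAIL receptor, was dim, at 5.38 ± 0.20 in the TRIM71 line and 5.32 ± 0.09 in the parental line (SD, n = 3 each), and its interval was wide (log2 fold change 0.07, interval −0.20 to 0.33, adjusted p = 0.748). TNFRSF10C, the other decoy receptor, was not analysed here. Of the 3 TRAIL receptors of this cluster that were measured, TNFRSF10B and TNFRSF10D were called higher in the TRIM71 line. Over all genes 10.0% rose, and these receptors were chosen with earlier results of these arrays known.

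Of 4 members in DNA repair and nucleotide supply, 2 fell, 0 rose and 2 did not pass by limma, with 2 at an unadjusted p under 0.05. By limma, 22.2% of all genes passed, and 31.2% of those that reached the median of all probesets. POLH, the polymerase that copies past ultraviolet lesions, had 9.19, 9.20 and 9.22 in the TRIM71 arrays, against 9.62, 9.72 and 9.69 in the parental arrays. It was 1.38-fold lower (log2 fold change −0.47, SE 0.05, adjusted p = 0.00201), and the 3 TRIM71 arrays lay within 0.03 of each other. DDB2, which recognises ultraviolet damage for nucleotide excision repair and carries the paired decamer, had 9.00, 9.14 and 9.11 in the TRIM71 arrays, against 9.39, 9.62 and 9.46 in the parental arrays. It was 1.32-fold lower (log2 fold change −0.40, SE 0.08, adjusted p = 0.0154) and lost its call without TRIM71 replicate 1 (−0.36, adjusted p = 0.0583). XPC, the next damage sensor of that repair route, had 7.72 ± 0.04 in the TRIM71 line and 7.75 ± 0.12 in the parental line (SD, n = 3 each; log2 fold change −0.03, interval −0.20 to 0.14, adjusted p = 0.837), and RRM2B, the p53-induced subunit of ribonucleotide reductase, differed by 0.09 (interval −0.06 to 0.25, adjusted p = 0.397).

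All 5 measured metabolic members passed the test, 3 of them higher and 2 lower in the TRIM71 line. Of all genes 22.2% passed, and of those that reached the median of all probesets 31.2%. TIGAR, a phosphatase that lowers glycolytic flux and favours the pentose phosphate pathway, had 9.28, 9.28 and 9.14 in the TRIM71 arrays, against 8.75, 8.62 and 8.73 in the parental arrays. With a 1.45-fold difference it was the member that rose most (log2 fold change 0.54, SE 0.06, adjusted p = 0.00331). TP53I3, an oxidoreductase linked to reactive oxygen, had 8.01, 8.12 and 8.23 in the TRIM71 arrays, against 7.71, 7.76 and 7.83 in the parental arrays (log2 fold change 0.35, adjusted p = 0.0197), and missed the threshold without TRIM71 replicate 2 (adjusted p = 0.0657), parental replicate 1 (0.0591) or parental replicate 2 (0.0712). ACER2, a ceramidase of the Golgi, had 7.57, 7.50 and 7.52 in the TRIM71 arrays, against 7.28, 7.17 and 7.16 in the parental arrays (log2 fold change 0.33, adjusted p = 0.00959).

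The 2 metabolic members that fell were CMBL and SESN1. CMBL, a cytosolic hydrolase, had 8.94, 8.98 and 8.87 in the TRIM71 arrays, against 9.51, 9.44 and 9.37 in the parental arrays, 1.43-fold lower (log2 fold change −0.51, SE 0.06, adjusted p = 0.00278). SESN1, a sestrin that restrains mTORC1 and whose promoter carries the second decamer shown, had 9.37, 9.36 and 9.37 in the TRIM71 arrays, against 9.62, 9.68 and 9.70 in the parental arrays. The TRIM71 arrays were nearly identical to each other and lay below all parental arrays (log2 fold change −0.30, SE 0.05, adjusted p = 0.00793).

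Of the 6 members in growth control and signalling, 2 fell, 0 rose and 4 did not pass by limma, with 3 at an unadjusted p under 0.05. The share that passed was 33.3%, beside 22.2% of all genes. Of genes that reached the median of all probesets 31.2% passed, but GDF15, PLK2 and PLK3 were dimmer than that, and none of them passed. ZMAT3, an RNA-binding zinc finger protein that regulates splicing, had 8.47, 8.51 and 8.45 in the TRIM71 arrays, against 9.00, 8.92 and 9.03 in the parental arrays, 1.42-fold lower (log2 fold change −0.50, SE 0.05, adjusted p = 0.00191). CCNG1, a cyclin that recruits a phosphatase to MDM2, had 12.23, 12.18 and 12.14 in the TRIM71 arrays, against 12.45, 12.37 and 12.34 in the parental arrays. The groups were apart by a narrow margin (log2 fold change −0.21, adjusted p = 0.0444), and the CCNG1 call ended whichever array was left out (adjusted p = 0.0817, 0.118 and 0.117 without TRIM71 replicates 1, 2 and 3; 0.104, 0.112 and 0.0752 without parental replicates 1, 2 and 3). Median centring of the arrays ended it too (−0.21, adjusted p = 0.0935), so that 7 members fell at that setting.

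The secreted stress cytokine GDF15 had 6.87, 6.91 and 7.16 in the TRIM71 arrays, against 6.74, 6.98 and 6.74 in the parental arrays, and the groups overlapped (log2 fold change 0.16, interval −0.09 to 0.40, adjusted p = 0.376). PLK2, a polo-like kinase and bearer of the last decamer shown, varied more than any other member within the TRIM71 group, at 6.82, 7.28 and 7.07, against 6.79, 6.59 and 6.73 in the parental arrays. Its difference of 0.35 did not pass (adjusted p = 0.103) and passed without TRIM71 replicate 1 (0.47, adjusted p = 0.0419). Its relative PLK3 (0.06, adjusted p = 0.569) and TP53INP1, a stress protein that assists p53 and autophagy (−0.04, adjusted p = 0.708), gave no call.

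**Figure D2:**
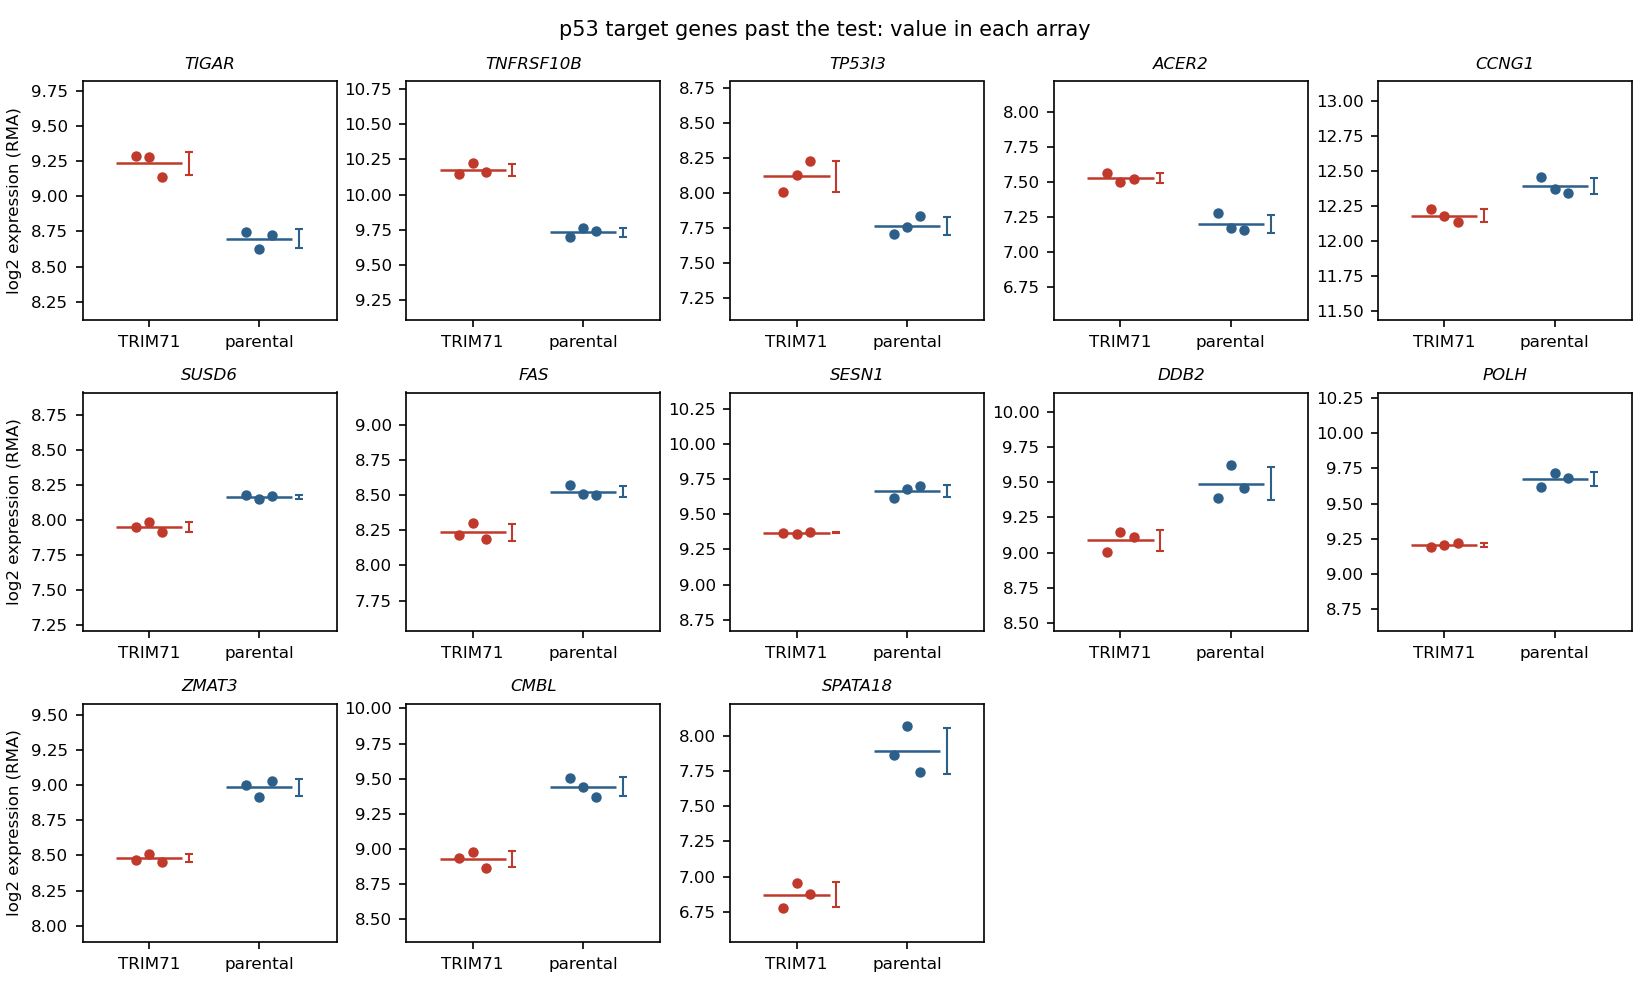
Log2 expression (vertical axes, RMA units, each panel spanning the same range) of the 13 p53 members that passed, 1 point per array, with TRIM71 arrays in red at the left and parental arrays in blue at the right. Horizontal lines are group means and bars are ± 1 SD of 3 arrays. In every panel the 3 TRIM71 points lie on one side of the 3 parental points, above them for the first 4 panels and below them for the other 9.

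Spread between arrays was small beside most of these differences. The median SD of the 29 members was 0.06 in both the TRIM71 and the parental arrays, beside 0.07 in both for all genes. For the 13 members that passed, the TRIM71 and parental arrays did not overlap. With groups apart, leaving out 1 array cannot change the direction, so the unchanged direction was no further test. The call held without any 1 array for 8 of the 13, namely TIGAR, TNFRSF10B, ACER2, SESN1, POLH, ZMAT3, CMBL and SPATA18. Among the 16 members that did not pass, 9 had groups that did not overlap, against 43.6% of all genes, passed or not. For genes that reached the median of all probesets it was 58.9%, but GDF15, PLK2 and PLK3 were dimmer than that. The 95% intervals of the 16 reached from −0.37 at the lowest to 0.64 at the highest.

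The position of members on the chromosomes was set beside their changes, because genes of chromosome 2 as a whole stood higher in the TRIM71 line, with a median log2 fold change of 0.08. TP53I3 lies there, and the 20 measured genes around it, 10 on each side, had a median of 0.11, of which 5 rose and 1 fell. Without the genes of chromosome 2, a setting chosen after seeing the data, 3 members rose and 9 fell. For the other members that passed, the median of the 20 neighbours lay within 0.07 of 0. SPATA18, at −1.02, stood among neighbours with a median of 0.00, and TIGAR, at 0.54, among neighbours with a median of −0.01. The part of chromosomal position in the TP53I3 difference was not tested.

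**Figure D3:**
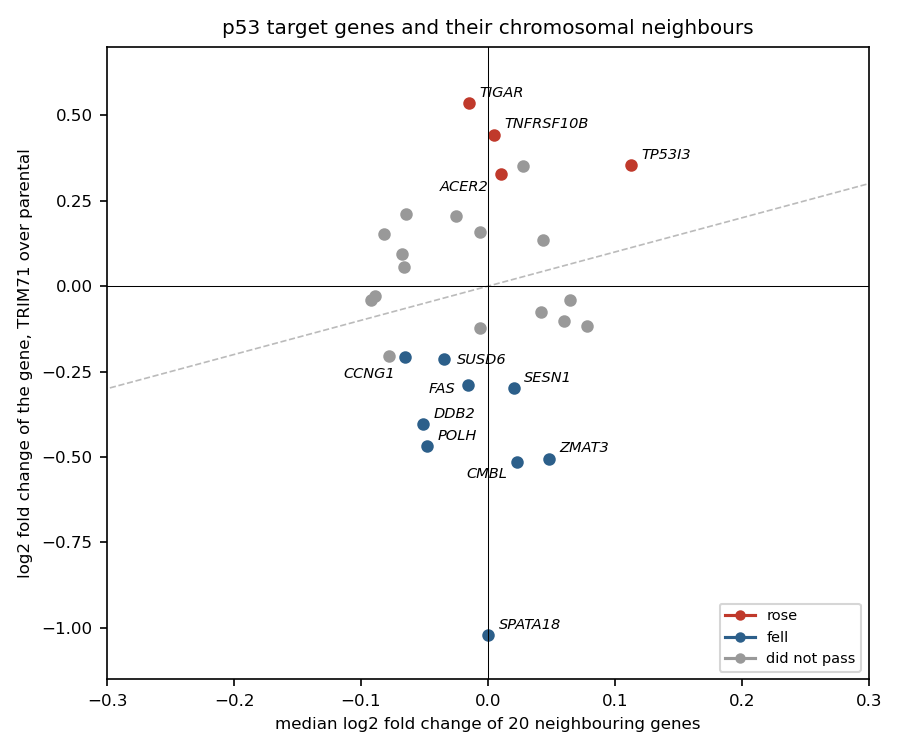
Log2 fold change of each p53 member, TRIM71 over parental (vertical axis), against the median log2 fold change of the 20 genes measured around it (horizontal axis), with red for members that rose, blue for fell and grey for those that did not pass. The dashed line marks equal values; the neighbours stay close to 0 while the members spread from −1.02 to 0.54, and TP53I3 has the highest neighbour median, 0.11.

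Among the genes that act on p53, more rose than fell in the TRIM71 line. In a list of 24 genes of the p53 family and regulators, written down with earlier results of these arrays known, 22 were measured. Of these, 8 rose (36.4%), 2 fell (9.1%) and 12 did not pass, against 10.0% and 12.2% of all genes. All 22 reached the median of all probesets, and among genes as bright 14.6% rose and 16.6% fell. Their median was 0.06. TP53BP1, the adaptor that gathers at DNA breaks, had 9.32, 9.42 and 9.35 in the TRIM71 arrays, against 8.80, 8.70 and 8.76 in the parental arrays, 1.52-fold higher (log2 fold change 0.61, SE 0.05, adjusted p = 0.00119). CHEK2, a checkpoint kinase that phosphorylates p53, had 8.72, 8.74 and 8.71 in the TRIM71 arrays, against 8.17, 8.18 and 8.24 in the parental arrays (log2 fold change 0.52, adjusted p = 0.00119). ATM, the kinase upstream of CHEK2, rose by 0.37 (adjusted p = 0.00318), and EP300, an acetyltransferase and coactivator of p53, by 0.40 (adjusted p = 0.00367).

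TP73, a p53 relative that binds many of the same sites, had 7.45, 7.50 and 7.42 in the TRIM71 arrays, against 7.88, 7.93 and 7.91 in the parental arrays, and fell (log2 fold change −0.45, adjusted p = 0.0021). KAT5, an acetyltransferase of p53 and ATM, fell by 0.27 on the log2 scale (adjusted p = 0.0251), with an adjusted p of 0.0718 without TRIM71 replicate 1, 0.0741 without TRIM71 replicate 2, and 0.0638, 0.09 and 0.0648 without parental replicates 1, 2 and 3. The number of these regulators that rose was 5 without TRIM71 replicate 1, TRIM71 replicate 2 or parental replicate 2, and 1 rather than 2 fell without those or parental replicates 1 or 3.

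A further 41 reported p53 targets, written down with earlier results of these arrays known, were also divided. Of 37 measured, 5 rose (13.5%), 11 fell (29.7%) and 21 did not pass, against 10.0% of all genes that rose and 12.2% that fell. The share that rose was near that of all genes. Their median was −0.03 beside −0.01 over all genes. CDKN1A, the CDK inhibitor p21 and the classic p53 target, had 7.37, 7.34 and 7.60 in the TRIM71 arrays, against 7.91, 8.04 and 7.97 in the parental arrays (log2 fold change −0.54, adjusted p = 0.00744). E2F7, a repressor of cell cycle genes, fell by 0.69 on the log2 scale (adjusted p = 0.000792), and PCNA, the replication clamp, by 0.38 (adjusted p = 0.00413). Besides TNFRSF10D, the growth factor TGFA rose by 0.40 (adjusted p = 0.00295), EPHA2, a receptor kinase, by 0.30 (adjusted p = 0.0191) and RPS27L, a ribosomal protein paralogue, by 0.23 (adjusted p = 0.0357). TGFA lies on chromosome 2, with a median of 0.21 over its 20 neighbours, of which 9 rose and 0 fell, and the neighbours of RPS27L had a median of 0.26, of which 11 rose and 0 fell, so that RPS27L changed no more than the genes around it.

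Several of these calls lay near the threshold and were lost with 1 array fewer, while the differences changed little. EPHA2, at 0.25 to 0.34 with any 1 array left out, missed the threshold without TRIM71 replicates 1, 2 and 3 (adjusted p = 0.052, 0.0683 and 0.0562) and without parental replicates 2 and 3 (0.0591 and 0.0562). RPS27L, at 0.20 to 0.26, missed it without TRIM71 replicates 1 and 2 (0.115 and 0.105) and parental replicates 1, 2 and 3 (0.092, 0.0874 and 0.0901). Of the further targets, 2 rose without TRIM71 replicates 1 or 2 or parental replicates 2 or 3, and 3 rose without TRIM71 replicate 3 or parental replicate 1. The number that fell was 5 without TRIM71 replicate 1 or parental replicate 2, 6 without TRIM71 replicate 2, and 7 without parental replicates 1 or 3.

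**Figure D4:**
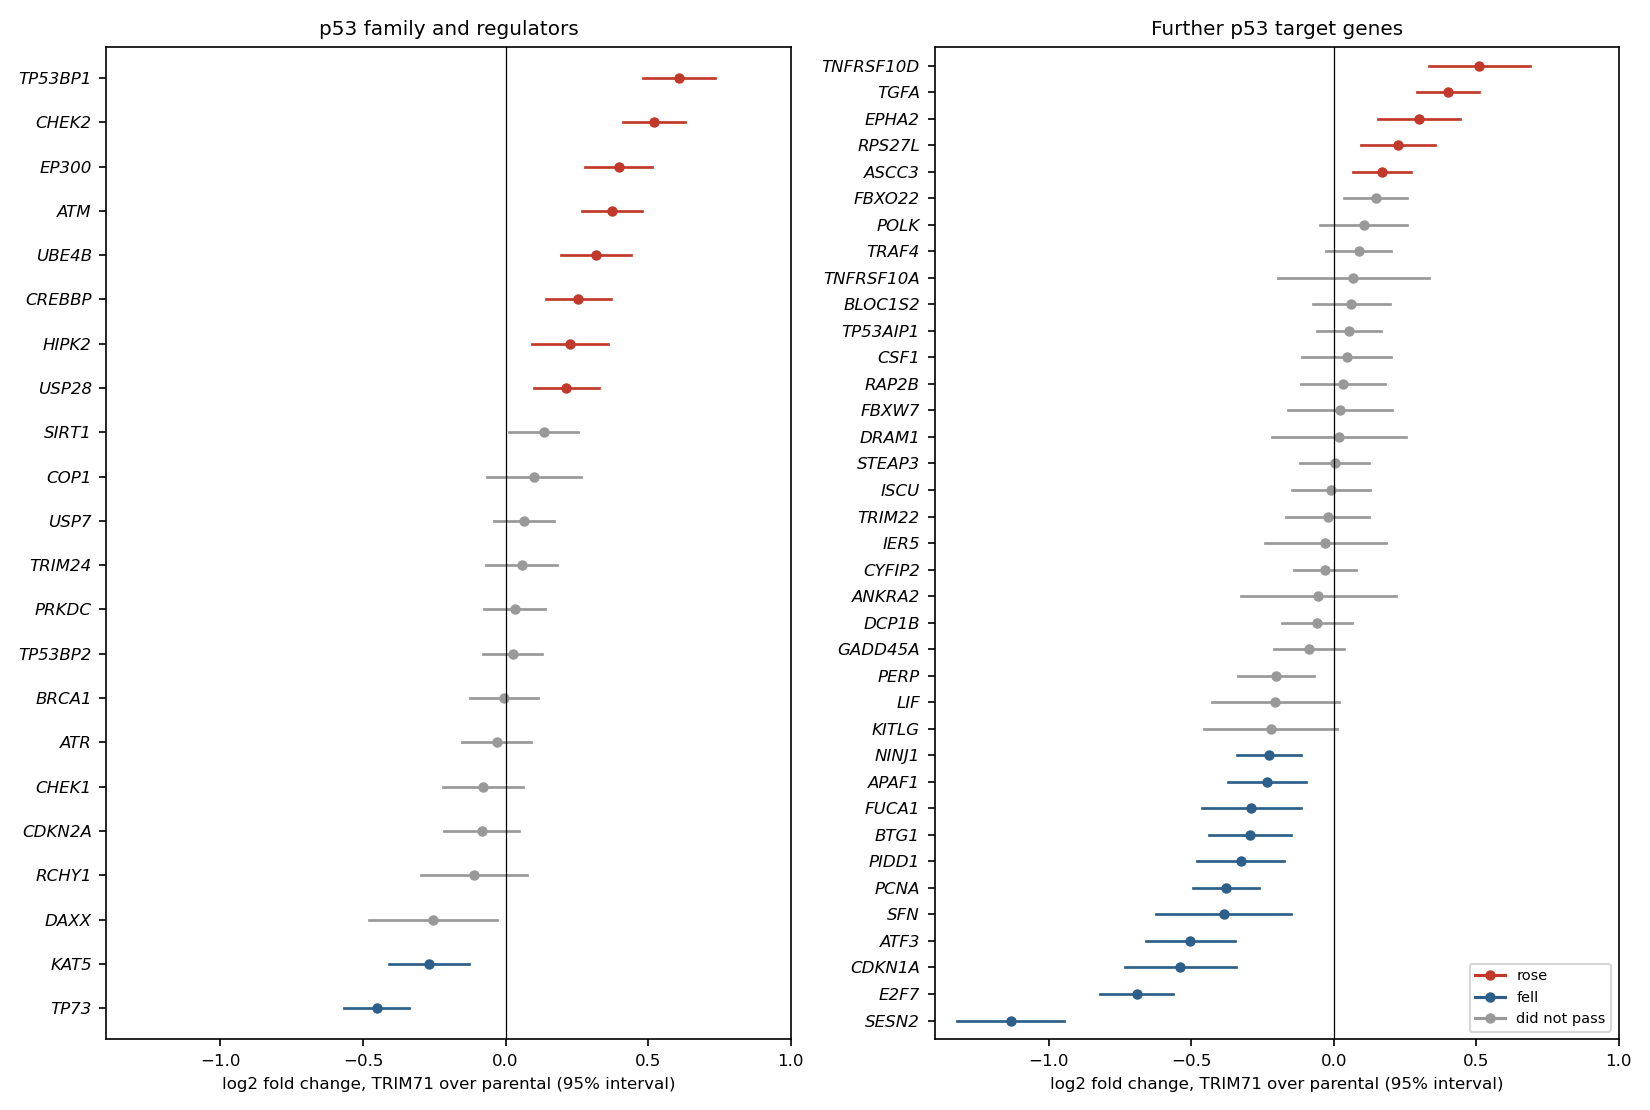
Log2 fold change, TRIM71 over parental (horizontal axes), with 95% limma intervals as bars, for 22 genes of the p53 family and regulators (left) and 37 further p53 targets (right), sorted from highest to lowest. Red genes rose, blue fell and grey did not pass: the left panel has 8 red and 2 blue genes, with TP53BP1 at the top, and the right panel has 5 red and 11 blue, with SESN2 at the bottom.

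Some p53 targets are also known targets of ATF4 or its partner CHOP, stress factors of the amino acid response. ATF4 mRNA fell in the TRIM71 line, at 10.63, 10.63 and 10.59 in the TRIM71 arrays, against 11.33, 11.28 and 11.16 in the parental arrays (log2 fold change −0.64, adjusted p = 0.00134). SESN2, a sestrin induced by p53 and by ATF4, had 8.17, 8.35 and 8.27 in the TRIM71 arrays, against 9.51, 9.29 and 9.39 in the parental arrays, 2.19-fold lower (log2 fold change −1.13, adjusted p = 0.000571). ATF3, a stress transcription factor downstream of both p53 and ATF4, fell by 0.50 on the log2 scale (adjusted p = 0.00441). TNFRSF10B, BBC3, PMAIP1 and GDF15 are members also known as targets of ATF4 or CHOP, and like SESN2 and ATF3 they were picked for this paragraph after their values were seen. TNFRSF10B rose by 0.44, and BBC3 (−0.04), PMAIP1 (−0.07) and GDF15 (0.16) did not pass. The part of ATF4 in these values was not tested.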

How the data were processed

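The deposited values were log2 expression per probeset for 6 arrays, which the authors made with RMA and affy, per the submitters' processing notes; per the labels' protocols, 100 ng of total RNA was amplified and labelled. The genome build, like the versions, was not given in the sources used here. RMA gives the arrays a common distribution, so a change in total mRNA per cell cannot be seen, and precision is limited by having 3 arrays per group. The annotation table paired 19158 of 32321 probesets with 1 symbol, 1388 with several and 11775 with none. A gene was given by its 1-symbol probeset of highest mean, 18404 genes in all, of which 18376 were placed on chromosomes by gene ID in RefSeq. All probesets were fitted in limma 3.58.1 under R 4.3.3 (lmFit, eBayes), adjusted over all of them. Members, lists and tests were chosen with earlier results of these data known. The rule for naming genes took all members, CDKN1A, SESN2 and up to 4 genes per direction with the smallest adjusted p from each other list. Alternatives were variance trends, normalizations, dim filters, probeset collapses, a replicate block, array weights, thresholds and single arrays left out.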

Additional observations from a re-analysis of the deposited data

How the results depend on the processing

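Under none of the 3 further normalizations did a member change sign, but median centring ended the CCNG1 and SUSD6 calls (7 members fell). Without single arrays, BBC3 turned to 0.0044 (without parental replicate 2), 0.015 (parental replicate 3), 0.0005 (TRIM71 replicate 1) and 0.019 (TRIM71 replicate 2), XPC to 0.0175 (parental replicate 1) and TP53INP1 to 0.0028 (TRIM71 replicate 1), with ranges over the 6 arrays left out of −0.14 to 0.019 for BBC3, −0.0951 to 0.0175 for XPC and −0.0667 to 0.0028 for TP53INP1, and none of the 3 passed in any setting. With 1 array left out, 3 to 5 members rose and 5 to 7 fell (median −0.0774 to −0.01), 5 to 6 regulators rose and 1 to 2 fell, 2 to 3 further targets rose and 5 to 10 fell, and over all genes 979 to 1485 rose and 1336 to 1709 fell. The count over all genes moved by over 1.5 times without parental replicate 2 (994 rose, 1365 fell), parental replicate 3 (1185 rose), TRIM71 replicate 1 (1121 rose, 1336 fell) and TRIM71 replicate 2 (979 rose). With the dim filter at the median, which dropped GDF15, PLK2 and PLK3, 7 members and 2380 genes in all rose. The median of the 26 members left was −0.0888, with each fold change as in the main fit. With 1 probeset per gene, 7 members and 2493 genes in all rose. With the mean of a gene's probesets, 8 members and 2495 genes in all rose. In the main fit 4 members and 1848 genes rose, so calls became more frequent over all genes too. The median of the members was −0.0635 with array weights. Median centring left 3 further targets risen, and over all genes 1431 rose and 1941 fell at that setting. Against a fold of 1.2, 0 members rose and 1 fell, 2 regulators rose and 0 fell, 0 further targets rose and 2 fell, and 232 genes rose and 471 fell in all. At an adjusted p under 0.01, 5 members fell, 5 regulators rose and 1 fell, 2 further targets rose and 5 fell, and 792 genes rose and 1106 fell. These last 2 settings are stricter by construction, and the shift in the members' median under the dim filter followed from the members dropped. The cause of the remaining shifts was not tested. With 1 mismatch allowed, 13 of 24 members had a decamer (54.2%, against 50.1% of all genes).

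The labels do not say that the replicate numbers pair the arrays. Deviations of same-numbered arrays correlated at 0.07, −0.19 and 0.11, but 3 arrays per group are too few to exclude pairing. With the replicate block, 5 regulators rose and 1 fell, 2 further targets rose and 6 fell, 1019 genes rose and 1371 fell, and 4 members rose and 6 fell.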
